A study of Saccharomyces cerevisiae with 12 samples.

Results

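Heat shock proteins and other molecular chaperones of yeast were followed across 4 strains as a list of 31 named genes. The list covers the Hsp70 proteins of the cytosol and the mitochondrial matrix, their nucleotide exchange factors and J-domain cochaperones, Hsp90 with its cochaperones, the Hsp104-type disaggregases, the small heat shock proteins, the mitochondrial chaperonin and a pair of factors that sort misfolded proteins. The genes were taken by name, and for each the probe set that the array's annotation gives to that gene alone was read. Such a probe set was found for 29 of the 31 genes, of 5656 genes that have one on the array. *SSB1* and *SSB2*, which encode near-identical ribosome-associated Hsp70 proteins, have a single probe set in common and are described only through it.

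Chaperones bind unfolded or partly folded proteins and let them fold, keep them soluble or pass them on for degradation. Many of their genes are transcribed at a basal level in growing yeast and more strongly after heat or other protein damage, through the heat shock factor Hsf1 and, for part of them, the stress factors Msn2 and Msn4. Rad23, one of the proteins deleted here, carries ubiquitinated proteins to the proteasome besides binding the DNA damage recognition factor Rad4, with which it acts in nucleotide excision repair.

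The 4 strains were wildtype BY4742, the *rad4Δ* and *rad23Δ* deletion strains obtained from the Euroscarf collection, and a *rad4Δrad23Δ* double mutant, which the authors derived from the BY4742 *rad23Δ* strain by exchanging *RAD4* for a fragment that carries the *HIS3* marker. The double mutant thus carries a marker that the other strains lack, and its *RAD4* deletion was not made in the same way as that of the *rad4Δ* strain. All cells were untreated and growing logarithmically, and were collected at an optical density of 0.5 to 0.6. For each strain, total RNA of 3 separate cultures was hybridised to 3 Affymetrix yeast S98 arrays, 12 in all. The p-values below rest on the spread between cultures of the same strain, pooled over the 4 strains. In limma this pooled spread is also drawn toward that of all probe sets. The arrays measure RNA of the whole culture, so a lower level in every cell and fewer expressing cells cannot be told apart.

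The deposited values are log2 values from the robust multichip average, and a difference of 1 on this scale is a factor of 2. The median of an array lay between 5.83 and 5.9. As a check of the labels, the *RAD23* probe set was at 3.66 to 4.88 on the 6 arrays of strains that lack *RAD23* and at 9.32 to 9.82 on the others. For *RAD4*, wildtype replicate 3 had 3.42, against 5.11 and 5.12 on the other wildtype arrays, and *rad4Δ* replicate 2 had 5.47, against 3.49 and 3.01 on the other *rad4Δ* arrays. From the *RAD4* values, the labels of these 2 arrays are in doubt. The 2443 probe sets without a gene name were then searched for the one that most clearly followed the same pattern. It was near 12 on wildtype replicate 3 (12.18) and at 4.28 on *rad4Δ* replicate 2. The other wildtype arrays had 4.75 and 4.63 and the remaining 8 arrays 12.06 to 12.36. Because it was picked for this pattern, it is not an independent check. The 2 arrays have labels in doubt for the reason given by *RAD4*. They were kept as labelled, and the calls are given with and without them. They enter every comparison that involves wildtype or *rad4Δ*, and through the shared estimate of the spread also that of the double mutant with *rad23Δ*.

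Compared with wildtype, chaperone transcripts were mostly at higher levels in the double mutant. Of the 29 genes, 28 had a positive mean difference (44.1% of all probe sets), and the median was 0.24 against -0.02 for all probe sets tested. The difference passed the test for 2 genes, *HSP82* and *CUR1*, both higher, where 0.388% of all probe sets were called higher (limma, adjusted p under 0.05, Benjamini-Hochberg over 9275 probe sets), and 0.647% in either direction. At an unadjusted p under 0.05 there were 9 higher and none lower, against 5.52% higher among all probe sets. For 15 genes the 3 double mutant arrays all lay above the 3 wildtype arrays, a separation found in 11.6% of all probe sets. None lay below, which was found in 13.3%. Without the 2 arrays in doubt, 5 genes were called (0.787% of all probe sets in either direction), namely *HSP82*, *HSP42*, *BTN2* and *CUR1*, which rose, and *HSP26*, which fell. The mean difference was then positive for 26 of the 29 genes, with a median of 0.24, against 48.5% and a median of -0.01 for all probe sets. With 12 arrays, the mean difference from the same wildtype arrays was also positive for 24 genes in *rad23Δ* (46.4% of all probe sets). In *rad4Δ* it was positive for 20 genes (48.6%).

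**Figure D1:**
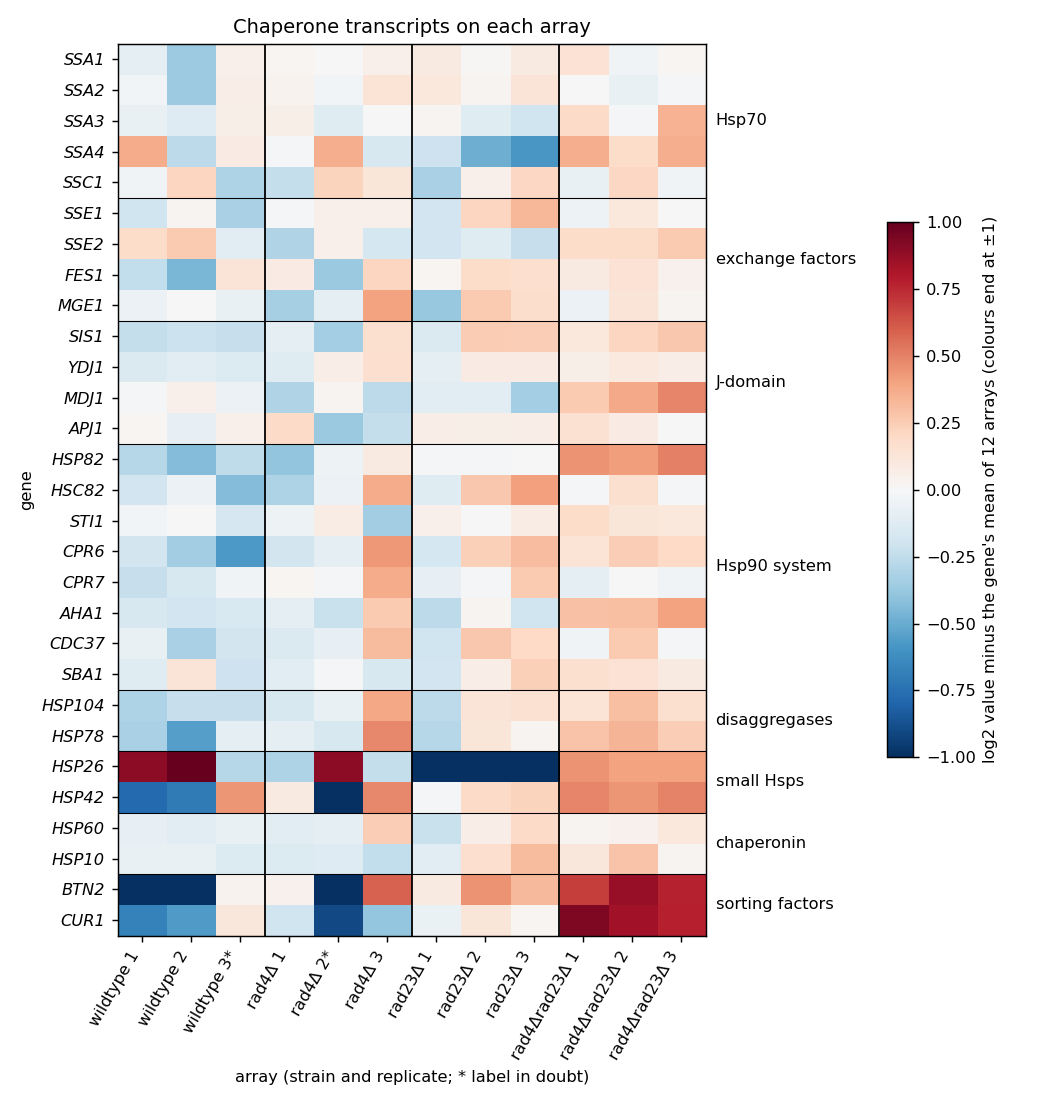
Level of each chaperone gene on each of the 12 arrays, as the log2 value minus the mean of that gene over the arrays, with genes ordered by role and arrays by strain as labelled. The 3 double mutant arrays are above the genes' own means for 22 to 26 of 29 genes, and *HSP26*, *HSP42*, *BTN2* and *CUR1* vary most between arrays.

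The double mutant arrays were also the most alike. The median SD of the 29 genes over 3 arrays was 0.0751 in the double mutant, 0.18 in *rad23Δ*, 0.172 in wildtype and 0.25 in *rad4Δ*, and for all probe sets tested it was 0.0889, 0.151, 0.147 and 0.186. The wildtype and *rad4Δ* values include the arrays in doubt. No double mutant array was the lowest of the 12 for any chaperone gene. By contrast, *rad4Δ* replicate 3 was the highest array for 10 of the 29 genes.

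Among Hsp90 and its cochaperones, *HSP82* rose in the double mutant. Hsp90 matures a set of client proteins that includes kinases and transcription factors, and *HSP82* (YPL240C) encodes its stress-inducible form. Its probe set was at 10.13, 9.98 and 10.16 on the wildtype arrays, 10.02, 10.36 and 10.50 on the *rad4Δ* arrays, 10.39, 10.39 and 10.42 on the *rad23Δ* arrays and 10.86, 10.83 and 10.92 on the double mutant arrays. All 3 double mutant arrays thus lay above the other 9, and the *rad23Δ* arrays lay above the wildtype arrays. The level in the double mutant was 1.72-fold that in wildtype (log2 difference 0.78, 95% interval 0.52 to 1.04, limma adjusted p = 0.00927) and 1.49-fold that in *rad4Δ* (0.58, interval 0.32 to 0.83, limma adjusted p = 0.0473). Against *rad23Δ* the difference was 0.47 and did not pass (limma adjusted p = 0.107). Without the arrays in doubt, the difference from wildtype was 0.82 (limma adjusted p = 0.0267) and that from *rad4Δ* was 0.61, which no longer passed (limma adjusted p = 0.0806). When single arrays were left out in turn, the call against wildtype was lost without wildtype replicate 1 or any 1 of the double mutant arrays (limma adjusted p up to 0.0763), and the call against *rad4Δ* remained only without *rad4Δ* replicate 3 (up to 0.243).

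The constitutive form of Hsp90, *HSC82*, was not called in any comparison. Its arrays ranged from 11.84 to 12.68, and the double mutant mean was 0.27 above wildtype, with an interval from -0.12 to 0.66. A probe set that the annotation gives to *HSP82* and *HSC82* together lay between 11.42 and 11.76 on all arrays. It differed by 0.16 between the double mutant and wildtype (interval -0.04 to 0.36), an interval below that of the *HSP82* probe set. Because these genes are close in sequence, how far each probe set reads the other transcript was not tested.

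The 6 cochaperones of Hsp90 all had higher means in the double mutant than in wildtype, and none passed the test. *AHA1*, which encodes the activator of the Hsp90 ATPase, came nearest with 9.21, 9.18 and 9.22 in wildtype and 9.66, 9.67 and 9.77 in the double mutant (difference 0.50, limma adjusted p = 0.131). The cyclophilin gene *CPR6* differed by 0.56 (limma adjusted p = 0.244), with wildtype between 9.74 and 10.13 and the double mutant between 10.45 and 10.56. For these genes and for *STI1*, whose product links Hsp70 to Hsp90, and *CDC37*, which brings kinases to Hsp90, the double mutant arrays lay above all wildtype arrays. For *CPR7*, a second cyclophilin gene, and *SBA1*, the yeast p23, the arrays overlapped.

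**Figure D2:**
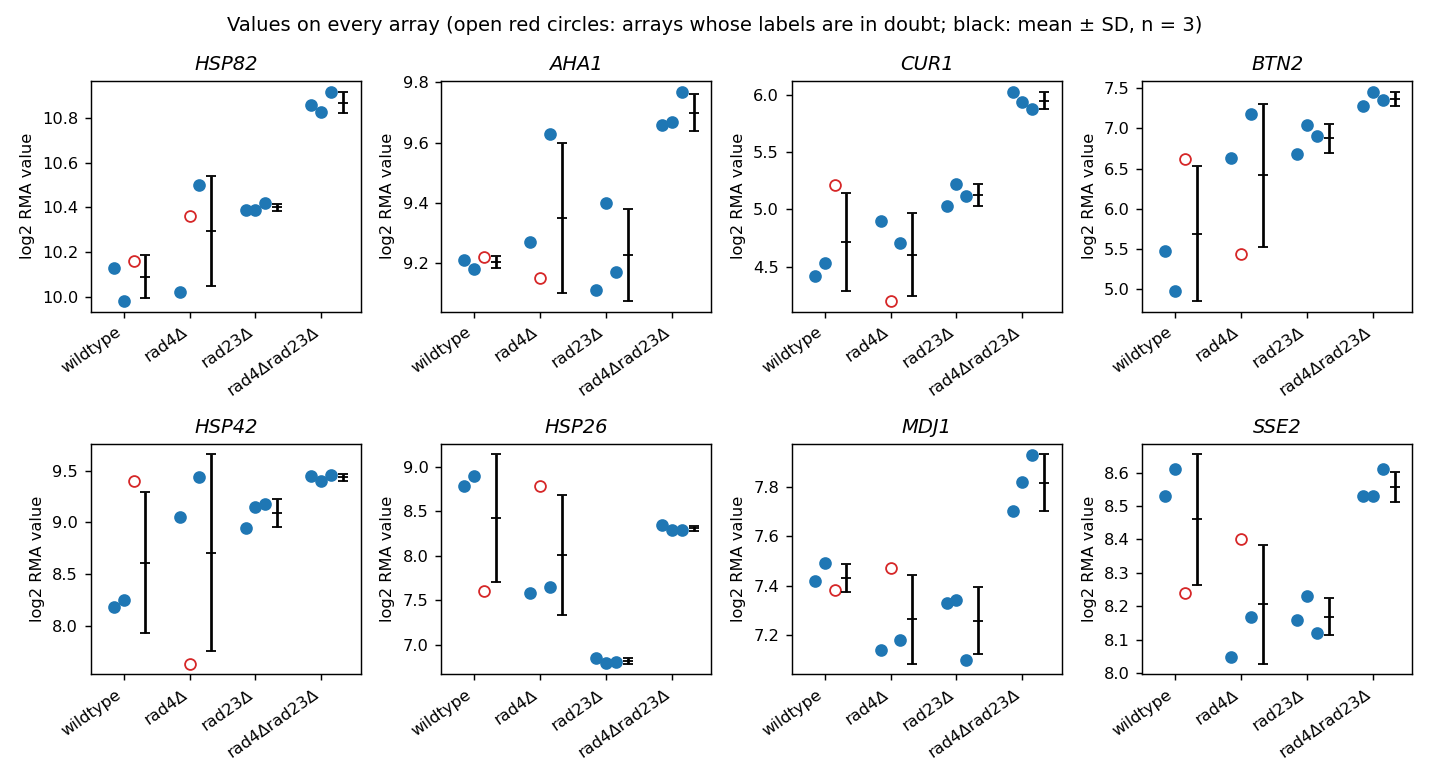
Log2 value on each of the 12 arrays, by strain as labelled, for 8 chaperone genes, with 1 circle per array, open red circles for the 2 arrays in doubt, and a bar with the mean ± SD (n = 3) of each strain. For *HSP82*, *AHA1*, *CUR1*, *BTN2* and *MDJ1* all double mutant circles lie above those of the other strains, and for *HSP26* the *rad23Δ* circles are the lowest.

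The sorting factors had the largest differences of the 29 genes between the double mutant and wildtype. Btn2 and its paralog Cur1 bind misfolded proteins and direct them to deposit sites in the cell. *CUR1* (YPR158W) was at 4.42, 4.53 and 5.21 in wildtype, 4.90, 4.20 and 4.71 in *rad4Δ*, 5.03, 5.22 and 5.12 in *rad23Δ* and 6.03, 5.94 and 5.88 in the double mutant. Every double mutant array lay above the other 9, and the highest wildtype value was that of the array in doubt. On those other 9 arrays *CUR1* lay below the array medians (5.83 to 5.9), so its fold differences are taken against a low signal. *CUR1* rose 2.35-fold against wildtype (log2 difference 1.23, interval 0.78 to 1.68, limma adjusted p = 0.0170) and 2.54-fold against *rad4Δ* (1.35, interval 0.90 to 1.79, limma adjusted p = 0.00973). The call against wildtype was lost without wildtype replicate 1 or 2 or any 1 of the double mutant arrays (limma adjusted p up to 0.0906), and that against *rad4Δ* without double mutant replicate 1 (0.0614). Against *rad23Δ* the difference of 0.83 did not pass with 12 arrays (limma adjusted p = 0.107). It did without the arrays in doubt, with the same difference and a smaller spread (limma adjusted p = 0.00367), and the difference between *rad23Δ* and wildtype was then 0.65 (limma adjusted p = 0.0307).

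*BTN2* (YGR142W) had the widest range of the list. It was at 5.47, 4.98 and 6.62 in wildtype, 6.63, 5.44 and 7.18 in *rad4Δ*, 6.68, 7.04 and 6.91 in *rad23Δ* and 7.28, 7.46 and 7.36 in the double mutant. The double mutant arrays were again the highest of the 12, while the third wildtype array was close to the first *rad4Δ* array and the second *rad4Δ* array to the first wildtype array. The difference between the double mutant and wildtype was 1.68 with an interval from 0.76 to 2.59 and did not pass (limma adjusted p = 0.128). *BTN2* rose, with the arrays in doubt left out, in all 3 mutants, by 1.68 in *rad4Δ* (limma adjusted p = 0.00725), 1.65 in *rad23Δ* (limma adjusted p = 0.00441) and 2.14 in the double mutant (limma adjusted p = 6.53e-04). These comparisons share the remaining 2 wildtype arrays.

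The small heat shock proteins Hsp26 and Hsp42 hold unfolded proteins in aggregates from which they can be recovered, and their genes had unlike patterns. *HSP26* (YBR072W) was at 8.78, 8.89 and 7.60 in wildtype, 7.58, 8.78 and 7.65 in *rad4Δ*, 6.85, 6.79 and 6.81 in *rad23Δ* and 8.34, 8.29 and 8.29 in the double mutant. The *rad23Δ* arrays were the lowest of all, and the double mutant arrays lay above them. They were within the range of wildtype only through wildtype replicate 3, an array in doubt, and below the other wildtype arrays. With 12 arrays the level in *rad23Δ* was 0.328 of that in wildtype (log2 difference -1.61, interval -2.34 to -0.87), which did not pass (limma adjusted p = 0.0923), and neither did the difference of 1.49 between the double mutant and *rad23Δ* (limma adjusted p = 0.0775). Each passed when wildtype replicate 3 or *rad4Δ* replicate 2 alone was left out (limma adjusted p between 0.0130 and 0.0346). Without the 2 arrays in doubt, *HSP26* fell by 2.02 in *rad23Δ* (interval -2.23 to -1.81, limma adjusted p = 2.70e-06), fell by 1.22 in *rad4Δ* (limma adjusted p = 3.57e-04) and fell by 0.53 in the double mutant (limma adjusted p = 0.0336). It was then higher in the double mutant than in *rad23Δ* by 1.49 (limma adjusted p = 2.09e-05) and than in *rad4Δ* by 0.69 (limma adjusted p = 0.00583).

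*HSP42* (YDR171W) was at 8.18, 8.25 and 9.40 in wildtype, 9.05, 7.63 and 9.44 in *rad4Δ*, 8.94, 9.15 and 9.18 in *rad23Δ* and 9.45, 9.40 and 9.46 in the double mutant. Leaving out the arrays in doubt, the wildtype arrays were the lowest, and *rad4Δ* replicate 3 was level with the double mutant arrays. No comparison of *HSP42* passed with 12 arrays, the difference between the double mutant and wildtype being 0.83 with an interval from -0.05 to 1.70. *HSP42*, with those arrays left out, rose by 1.03 in *rad4Δ* (limma adjusted p = 0.0124), 0.88 in *rad23Δ* (limma adjusted p = 0.0164) and 1.22 in the double mutant (limma adjusted p = 0.00216).

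J-domain proteins deliver unfolded proteins to Hsp70 and start its ATPase. Of the 4 genes measured, 1 was called. *MDJ1* (YFL016C), whose product serves the Hsp70 of the mitochondrial matrix, was at 7.42, 7.49 and 7.38 in wildtype, 7.14, 7.47 and 7.18 in *rad4Δ*, 7.33, 7.34 and 7.10 in *rad23Δ* and 7.70, 7.82 and 7.93 in the double mutant. The double mutant arrays lay above all others, and the *rad23Δ* arrays below all wildtype arrays. *MDJ1* was higher in the double mutant than in *rad23Δ* by 0.56 (interval 0.31 to 0.81, limma adjusted p = 0.0463). This call remained when any 1 of the *rad4Δ* arrays was left out, and was lost without any other array (limma adjusted p up to 0.268). The differences from *rad4Δ* (0.55, limma adjusted p = 0.0510) and from wildtype (0.39, limma adjusted p = 0.222) did not pass, and without the arrays in doubt that from *rad4Δ* did (0.66, limma adjusted p = 0.0283).

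The cytosolic J-domain genes were not called. *SIS1* and *YDJ1*, the main partners of cytosolic Hsp70, had all double mutant arrays above all wildtype arrays, and *SIS1* was at 9.64 to 9.66 in wildtype and 9.98 to 10.15 in the double mutant (difference 0.42, limma adjusted p = 0.276). *APJ1*, with values from 4.16 to 4.72, had overlapping arrays in that comparison.

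Hsp70 proteins bind short hydrophobic stretches of unfolded chains. None of the 5 genes with a probe set of their own was called in any comparison. The constitutive cytosolic genes *SSA1* and *SSA2* lay between 13.10 and 14.09, and for both the lowest array was wildtype replicate 2. The stress-inducible gene *SSA4* (YER103W) had the widest range, with 8.27, 7.64 and 7.98 in wildtype, 7.89, 8.26 and 7.74 in *rad4Δ*, 7.69, 7.41 and 7.32 in *rad23Δ* and 8.26, 8.08 and 8.26 in the double mutant. Its arrays were thus lower in *rad23Δ* than in the double mutant, without overlap (difference 0.73, interval 0.35 to 1.10, limma adjusted p = 0.0940), and the double mutant lay within the upper range of wildtype. *SSA3*, the other inducible gene, varied between 5.65 and 6.20, and *SSC1*, for the Hsp70 of mitochondria, between 9.47 and 10.02. The probe set common to *SSB1* and *SSB2* lay between 11.92 and 12.24 on all arrays, and the double mutant differed from wildtype by -0.01 (interval -0.21 to 0.19).

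Nucleotide exchange factors release ADP from Hsp70 and so end a cycle of binding. With 12 arrays none of the 4 genes was called. *SSE2* (YBR169C), which encodes an Hsp110-type factor, was at 8.53, 8.61 and 8.24 in wildtype, 8.05, 8.40 and 8.17 in *rad4Δ*, 8.16, 8.23 and 8.12 in *rad23Δ* and 8.53, 8.53 and 8.61 in the double mutant. The double mutant was above every array of the *rad4Δ* and *rad23Δ* strains, by 0.35 (limma adjusted p = 0.271) and 0.39 (limma adjusted p = 0.201) in the means, and at the level of wildtype replicates 1 and 2. The other factors overlapped between the double mutant and wildtype, with ranges of 9.66 to 10.31 for *SSE1*, 8.62 to 9.29 for *FES1* in the cytosol and 7.80 to 8.58 for *MGE1* in mitochondria. For *FES1* only wildtype replicate 3 (9.21), an array in doubt, overlapped the double mutant arrays (9.12 to 9.22). The other wildtype arrays had 8.83 and 8.62. Without the arrays in doubt the *FES1* difference was 0.445 and did not pass (limma adjusted p = 0.149).

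Hsp104 pulls proteins out of aggregates, and Hsp78 is its relative in mitochondria. *HSP78* (YDR258C) was at 6.87, 6.64 and 7.10 in wildtype, 7.10, 7.03 and 7.67 in *rad4Δ*, 6.91, 7.31 and 7.22 in *rad23Δ* and 7.48, 7.53 and 7.44 in the double mutant. The double mutant arrays lay above those of wildtype and *rad23Δ*, and *rad4Δ* replicate 3 was higher than any of them. The difference from wildtype was 0.61 and did not pass (limma adjusted p = 0.191). *HSP104*, at 8.92 to 9.0 in wildtype and 9.37 to 9.53 in the double mutant, differed by 0.46 (limma adjusted p = 0.276).

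The mitochondrial chaperonin is a barrel of Hsp60 closed by Hsp10, and neither gene was called in any comparison. *HSP10* (YOR020C) was at 10.21, 10.21 and 10.15 in wildtype, 10.15, 10.16 and 10.04 in *rad4Δ*, 10.18, 10.45 and 10.60 in *rad23Δ* and 10.40, 10.57 and 10.31 in the double mutant. The double mutant arrays lay above those of wildtype and *rad4Δ*, and the difference from *rad4Δ* of 0.31 did not pass (limma adjusted p = 0.334). *HSP60* lay between 12 and 12.47 on all arrays.

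**Figure D3:**
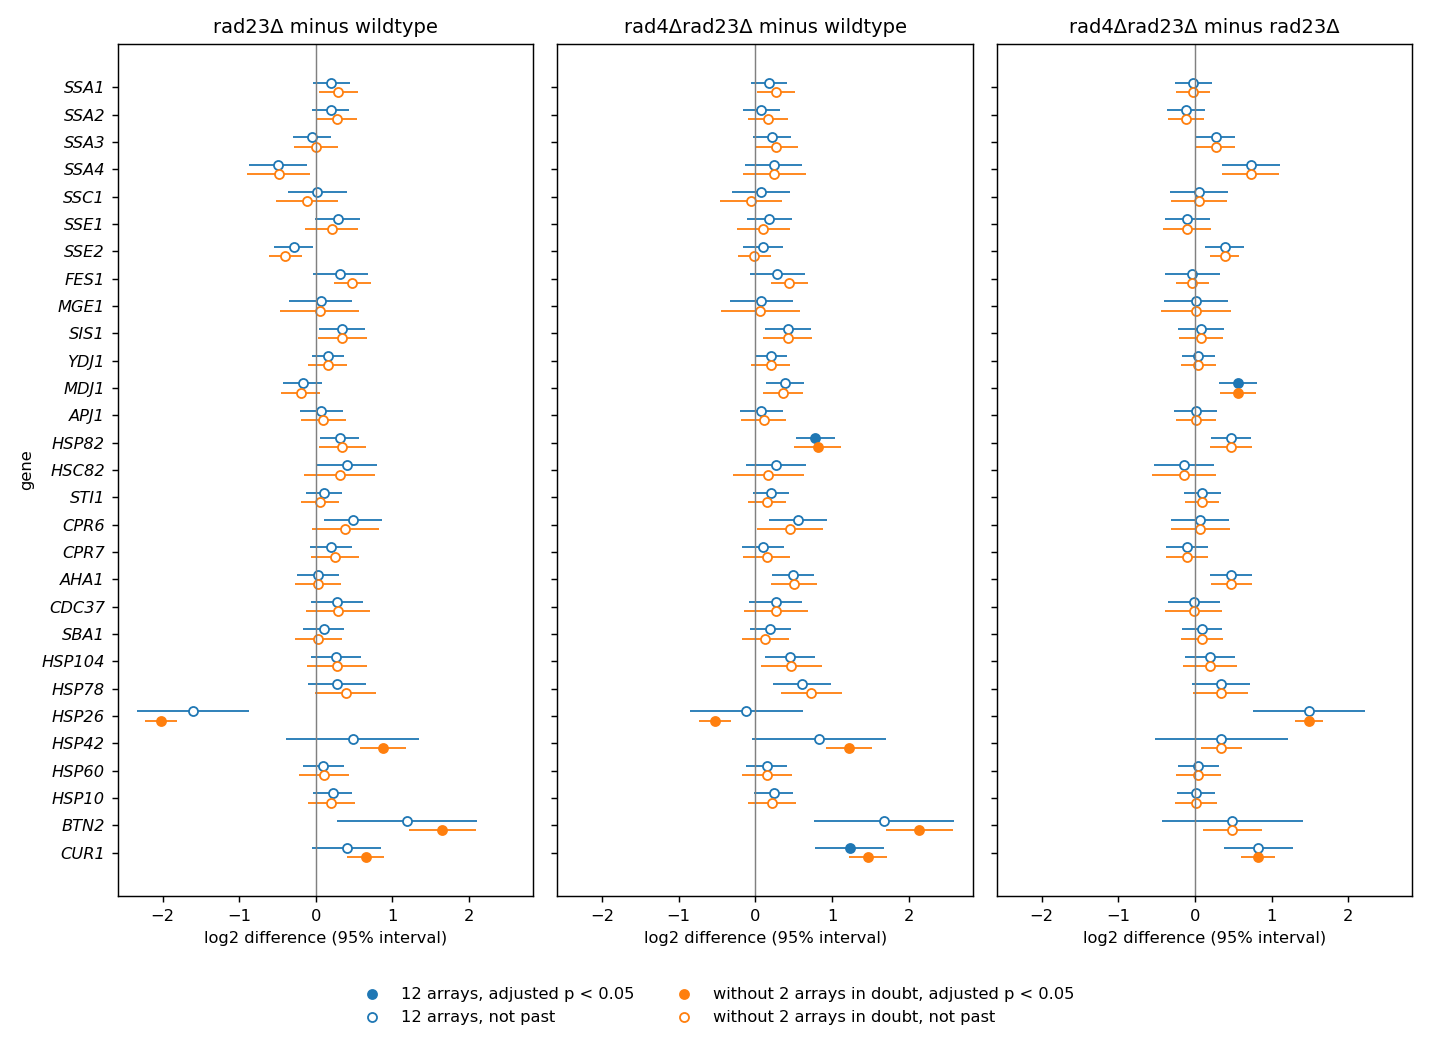
Log2 difference with its 95% interval for each chaperone gene, ordered by role, in 3 comparisons, with 12 arrays (blue) and without the 2 arrays in doubt (orange); filled points passed limma's test at an adjusted p under 0.05. With 12 arrays the double mutant differences from wildtype lie right of 0 for 28 of 29 genes, and the intervals of *HSP26*, *HSP42*, *BTN2* and *CUR1* are narrower without the 2 arrays.

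The 29 genes were also compared between the *rad23Δ* single deletion strain and wildtype. None was called with 12 arrays, and 0.28% of all probe sets were (limma). At an unadjusted p under 0.05, 5 were higher and 3 lower, 8 of 29 against 7.15% of all probe sets. The higher ones included *BTN2* (1.19, limma adjusted p = 0.526), *CPR6* and *HSP82*, and the lower ones were *SSA4*, *SSE2* and *HSP26*. For 6 genes the *rad23Δ* arrays lay above all wildtype arrays (5% of all probe sets) and in 3 below (6.5%). The median difference was 0.20, against -0.01 for all probe sets. Without the arrays in doubt 4 genes were called (0.658% of all probe sets), of which *HSP42*, *BTN2* and *CUR1* rose and *HSP26* fell.

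Between the double mutant and the *rad23Δ* strain from which it was derived, *MDJ1* was the 1 gene called, where 0.873% of all probe sets passed. The double mutant arrays lay above the *rad23Δ* arrays in 11 genes (10.4% of all probe sets) and below in 1, *SSA2* (9.93%). The 11 were *SSA4*, *SSE2*, *MDJ1*, *HSP82*, *STI1*, *AHA1*, *HSP78*, *HSP26*, *HSP42* and both sorting factors. The arrays of the inducible gene *SSA3* and of *HSP104* overlapped. At an unadjusted p under 0.05, 8 were higher (5.68% of all probe sets) and none lower. The median difference was 0.08 against -0.01 for all probe sets, and it was -0.01 when *rad23Δ* replicate 1 was left out. Without the arrays in doubt, *MDJ1*, *HSP26* and *CUR1* were called, all higher, where 1.35% of all probe sets were called.

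Against *rad4Δ*, *CUR1* and *HSP82* were higher in the double mutant, where 0.765% of all probe sets were called. Arrays did not overlap in 9 genes, all higher in the double mutant (7.73% of all probe sets), with none lower (9.46%). At an unadjusted p under 0.05, 8 were higher (5.91% of all probe sets). The median difference was 0.22 against -0.02 for all probe sets, and 0.10 without the arrays in doubt. With the arrays in doubt left out, *MDJ1*, *HSP26* and *CUR1* were called (1.25% of all probe sets). In this comparison and in that of *rad4Δ* with wildtype, *rad4Δ* replicate 3 stood above the other *rad4Δ* arrays for many genes, with 9.62 against 9.07 and 9.16 for *HSP104* and 10.75 against 10.13 and 10.22 for *CPR6*.

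Between *rad4Δ* and wildtype no chaperone gene was called with 12 arrays, and 0% of all probe sets were (limma). Both arrays in doubt belong to this comparison. The median difference was 0.14 against -0.003 for all probe sets, and without those 2 arrays 0.165 against 0.015. At an unadjusted p under 0.05, *CPR6* (0.42) and *HSP78* (0.40) were higher and none was lower, against 1.43% higher and 2.73% lower among all probe sets. The arrays of the strains did not overlap in 2 genes, *CPR7* and *HSP104*, both higher in *rad4Δ*, as in 2.53% of all probe sets, and none was lower without overlap (2.93%). Without the arrays in doubt, *HSP42* and *BTN2* rose and *HSP26* fell, and 0.431% of all probe sets were called.

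Whether the deletions combined additively on the log2 scale, where fold differences multiply, was tested as an interaction. It was taken as the double mutant plus wildtype minus both single deletion strains. No chaperone gene passed with 12 arrays in limma (0.0863% of all probe sets did), and 5 had an unadjusted p under 0.05, all positive, against 5.14% positive among all probe sets. The largest were *HSP26* (1.91, interval 0.87 to 2.95, limma adjusted p = 0.213) and *CUR1* (0.94, limma adjusted p = 0.333). Without the arrays in doubt, *HSP26*, *MDJ1* and *SSE2* passed (1.19% of all probe sets), and in each the double mutant was above the level that the sum of the separate differences gives. The direction was then not uniform. At an unadjusted p under 0.05, 5 genes were positive and 5 negative, against 6.91% and 5.23% of all probe sets. The lowest was *BTN2* (-1.19, limma adjusted p = 0.0882).

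**Figure D4:**
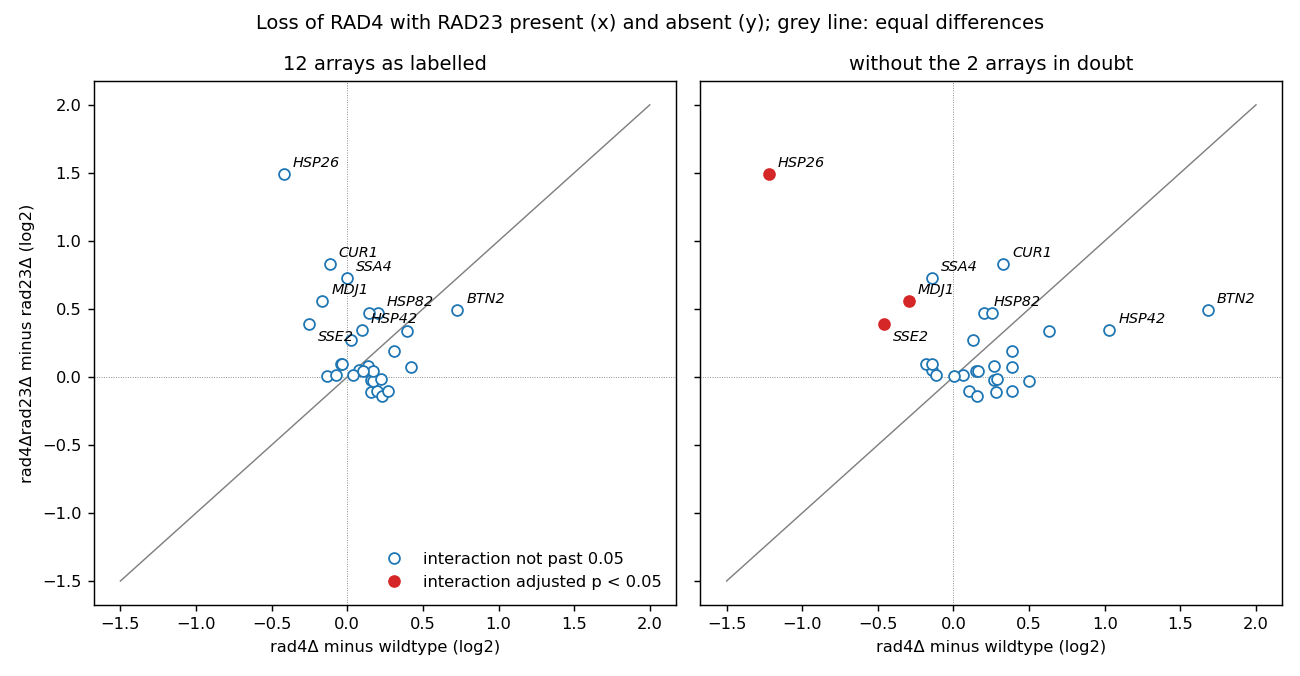
Log2 difference between *rad4Δ* and wildtype (horizontal axis) and between the double mutant and *rad23Δ* (vertical axis), 1 point per chaperone gene, with 12 arrays (left) and without the 2 arrays in doubt (right). The grey line marks equal differences, and the red points in the right panel are *HSP26*, *MDJ1* and *SSE2*, whose interaction passed limma's test.

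The other genes of chaperone function were read for comparison. They were the subunits of the cytosolic chaperonin CCT and of prefoldin, which fold and hand over actin and tubulin, chaperones at the ribosome, further J-domain, Hsp70 and Hsp90 partner genes, cyclophilins and FK506-binding proteins, and regulators of heat shock genes including *HSF1*, *MSN2* and *MSN4*. Of 54 genes listed, 53 had a probe set of their own, and none was called in any of the 6 comparisons, with 12 arrays or without the 2 in doubt (limma). Between the double mutant and wildtype, 4 of the 53 had an unadjusted p under 0.05, against 11.1% of all probe sets, and the median difference of the 53 was 0.00.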

How the data were processed

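RNA of 12 cultures was measured on Affymetrix yeast S98 arrays. According to the labels, the arrays were scanned with Microarray Suite 5.0, and the authors deposited log2 values of the robust multichip average (affy 1.5.8 of Bioconductor 1.5 in R 2.0.1), which corrects background, normalizes between arrays and summarises probe sets. No further normalization was applied. The precision is limited by the 3 arrays per strain.

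Of 9335 probe sets, 60 Affymetrix controls were left out. Gene names came from the platform annotation, which can be old, and locus tags from RefSeq: 6504 of the tested probe sets had 1 gene name, 328 several and 2443 none. Each of the 29 measured genes had exactly 1 probe set of its own.

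With limma 3.58.1 in R 4.3.3, 1 mean per strain was fitted to 12 arrays (residual degrees of freedom 8, prior 4.03) and 6 comparisons were tested on all 9275 probe sets, with Benjamini-Hochberg adjustment and a threshold of 0.05, without a fold minimum. Intervals are limma's 95% intervals, unadjusted. In simulated data for the comparison of the double mutant with wildtype, with 200 changed probe sets of 9275 in each of 20 simulations, 5.26% of calls were false. The simulated arrays had independent noise, the same spread in every strain and no label in doubt. The real arrays differ from this, so the share of false calls among them is not known from the simulations.

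Values by array are given for genes called with or without the arrays in doubt and for the most variable gene of each role. *AHA1* was added after its values were seen. The genes and lists were chosen with earlier results of these data known. Alternatives covered scaling, dim probe sets, the variance model, array weights, the strains fitted, averaged probe sets, leaving out arrays, and a block for the replicate number. Genome coordinates and sequences were not used here.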

Additional observations from a re-analysis of the deposited data

Results flagged for a closer look

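Without the 2 arrays in doubt, wildtype replicate 3 and *rad4Δ* replicate 2, the difference that goes with the loss of *RAD4* was not the same with and without *RAD23* for 3 chaperone genes, by limma's test of the interaction. *HSP26* had an interaction of 2.71 on the log2 scale (adjusted p = 4.42e-06). It was lower in *rad4Δ* than in wildtype by 1.22 and higher in the double mutant than in *rad23Δ* by 1.49. *MDJ1* had an interaction of 0.86 (limma adjusted p = 0.0406), and *SSE2* had one of 0.85 (limma adjusted p = 0.0167). With 12 arrays none of these passed (1.91, 0.73 and 0.64, limma adjusted p from 0.159 to 0.245). Each strain is then represented by 2 or 3 arrays, and the choice of the arrays left out was made with their values known.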

How the results depend on the processing

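The counts of chaperone genes called were 0, 0, 2, 1, 2 and 0 with 12 arrays, for *rad4Δ*, *rad23Δ* and the double mutant against wildtype, the double mutant against *rad23Δ* and against *rad4Δ*, and the interaction. Apart from fits that left out 1 array, 39 recomputed counts stayed within 1.5 times of these and 20 did not. No gene difference with an unadjusted p under 0.05 with 12 arrays changed direction under the alternatives run. Without the 2 arrays in doubt 14 of 174 gene differences changed sign, 0 of them called with or without these arrays, and the widest were *CUR1* in *rad4Δ* against wildtype (from -0.12 to 0.33) and the interaction of *HSP42* (from 0.25 to -0.68). Leaving out the 2 arrays in doubt gave 3, 4, 5, 3, 3 and 3. Array weights over all genes gave 1, 19, 18, 8, 9 and 7, with 639, 2357, 2359, 896, 882 and 1016 of all probe sets called, but their estimation stopped before it converged. Weights estimated gene by gene, an alternative chosen after seeing the data, gave 0, 13, 11, 8, 7 and 5. Those gene-by-gene weights called 1, 842, 827, 924, 344 and 332 of all probe sets, against 0, 26, 60, 81, 71 and 8 without weights. For the double mutant against *rad23Δ*, fitting only the strains compared gave 5, and against *rad4Δ* this fit and centring the arrays on their medians each gave 1. Further quantile normalization, leaving out dim probe sets, a variance trend and averaging probe sets of a gene left every count within 1.5 times. The cause of these changes was not tested.

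Leaving out 1 array at a time gave 0 to 0, 0 to 1, 0 to 3, 0 to 2, 0 to 2 and 0 to 1 genes in the order above. With the replicate number as a block, 2 genes were called between the double mutant and *rad23Δ* (*MDJ1* and *HSP26*) and the calls of the other comparisons were the same genes. Correlations of the deviations of same-numbered arrays ran from -0.366 to 0.609 over 18 pairs of arrays, 10 of them over 0.1. For *rad4Δ* and the double mutant all 3 were over 0.1 (0.124 to 0.273). The labels do not say what a number stands for, and whether it marks a batch was not tested.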
